A study of Mus musculus with 10 samples.

Results

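The genes described here encode the growth factors that macrophages and other myeloid cells depend on, the receptors for those factors and a pair of transcription factors of the myeloid lineage. They are Csf1, Il34, Csf1r, Csf2ra, Csf2rb, Csf2rb2, Csf3r, Spi1 and Irf8. Every probe set whose platform annotation gave exactly 1 symbol, and whose symbol was one of these 9, was taken, which gave 17 of the 45101 probe sets on the array. Each gene was represented by its brightest probe set, so that 9 of 18193 genes tested belong to the group. The arrays were hybridised with RNA from epididymal white adipose tissue, the fat pad along the epididymis, of male C57BL/6J mice that were 8 weeks old when feeding began. Of 10 mice, 5 received a normal chow (CRF-1) and 5 a diet with 60% fat, each for 8 weeks, with 1 array per mouse. The chow group is the control, and no allele or transgene is named for either group. Levels are normalized log2 intensities, changes are high-fat diet minus normal chow on that scale, and standard errors (SE) come from limma.

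CSF1 (M-CSF) and IL-34 are separate ligands of the receptor tyrosine kinase CSF1R, which carries the survival and proliferation signal of most tissue macrophages. The receptor for GM-CSF pairs a specific alpha chain, CSF2RA, with the common beta chain CSF2RB, which also serves interleukin 3 and interleukin 5. Mice carry a second beta chain, CSF2RB2, that serves interleukin 3. CSF3R is the G-CSF receptor of neutrophils. PU.1, the product of Spi1, is the ETS-family factor without which macrophages do not form, and IRF8 directs monocyte and dendritic cell development. In fat, these cells increase in number during diet-induced obesity.

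Most of the receptors and both lineage factors were higher on the high-fat diet, and neither ligand passed the test at its brightest probe set. Of the 9 genes, 6 rose at a limma adjusted p under 0.05 and none fell. Over all genes 25.9% passed, of which 12.9% rose and 13.1% fell as shares of all genes. Spi1 had the largest change of the 9, at 3.77 (SE 0.28), followed by Irf8, Csf2ra, Csf2rb2, Csf1r and Csf3r. The 3 that did not pass were the ligands Csf1 and Il34 and the common beta chain Csf2rb. The median change of the 9 was 2.07, beside -0.037 over all genes. The 5 high-fat arrays lay above all 5 chow arrays for 7 of the 9 genes, where 11.5% of all genes did so and 22.5% separated in either direction. Of the 17 probe sets 13 rose and none fell, and 14 lay higher with no overlap. Over all probe sets 17.9% passed, 9.89% rose, 8% fell and 9.49% lay higher with no overlap. Without chow arrays 1 and 2, which stand apart as described next, 7 of the 9 rose and none fell, where 38.2% of all genes passed, 18.5% rose and 19.8% fell.

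**Figure D1:**
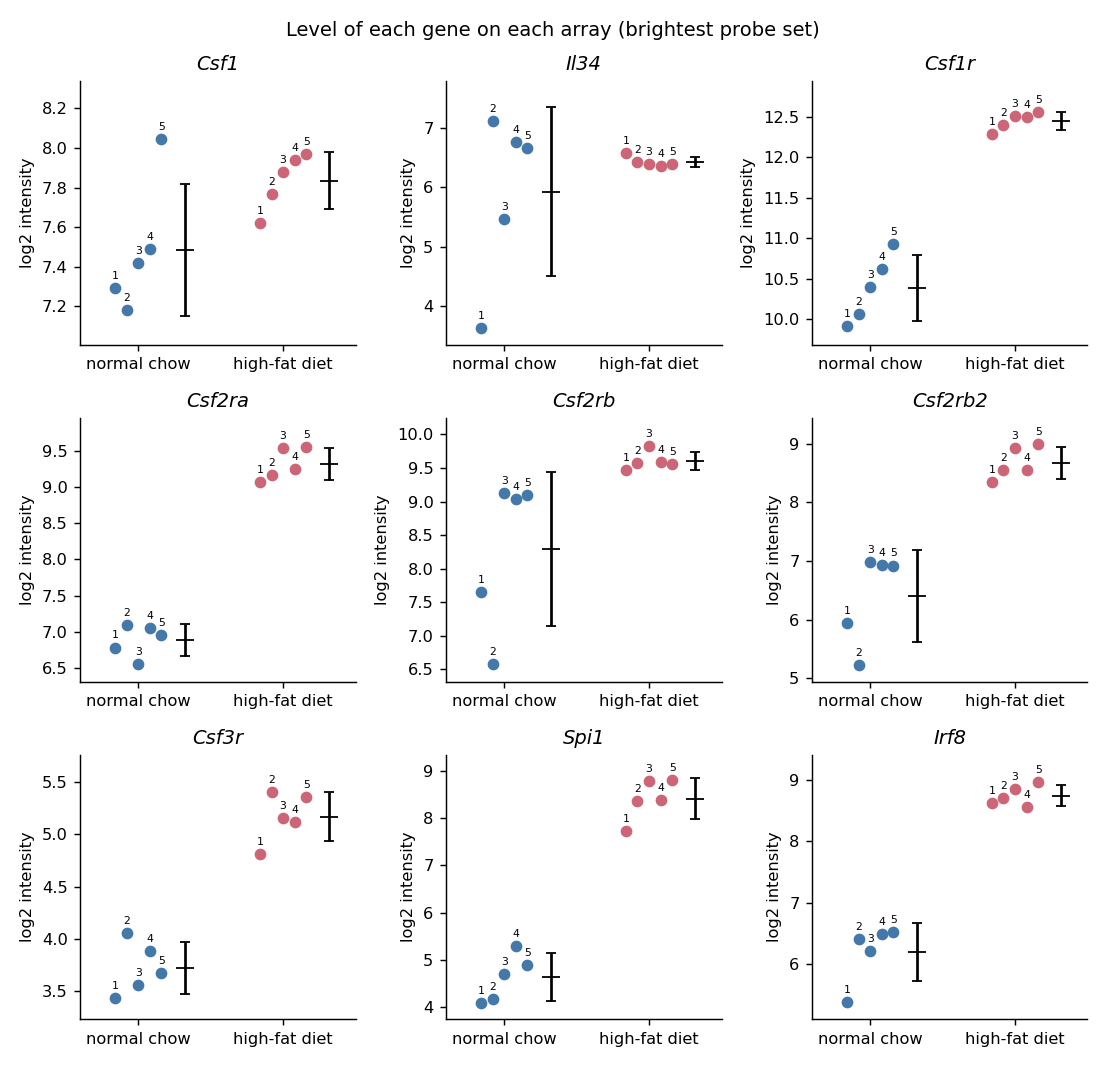
Normalized log2 intensity of the brightest probe set of each of the 9 genes on every array, with the array number above each point and the mean and SD (n = 5) as a black bar to the right of each diet. The high-fat arrays lie above all chow arrays in 7 panels, and overlap with them for Csf1 and Il34. Csf2rb and Csf2rb2 are lowest in chow arrays 1 and 2.

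Several marker lists moved with diet. All 7 epithelial markers fell, with list means of 6.96 to 10.4 on chow and 4.09 to 4.77 on the high-fat diet. Of 15 measured epididymis and testis transcripts 7 fell, with list means of 6.97 to 11.4 on chow and 3.65 to 4.91 on the high-fat diet. Endothelial list means were 7.69 and 6.73 in chow arrays 1 and 2 against 9.16 to 9.60 in the other chow arrays. On the high-fat diet they were 8.04 to 8.59. None of the 6 endothelial markers passed over all arrays, but without chow arrays 1 and 2 all 6 fell, beside 19.8% of all genes. Adipocyte list means were 9.43 to 11.7 on chow, lowest in arrays 2 and 1, and 11.2 to 11.9 on the high-fat diet. Of 6 adipocyte markers Lep, the leptin gene, rose (3.66) and Adipoq, the adiponectin gene, differed by 0.22 (adjusted p = 0.477). Of 5 mast cell markers Mcpt4 (4.07), Cpa3 (3.07) and Cma1 (2.35) rose, though Mcpt4 and Cma1 overlapped between the diets. Kit differed by -0.32 without passing (limma adjusted p = 0.0564), its highest high-fat level being 6.93 and its lowest chow level 7.08. Tpsb2 differed by 0.093. The mast cell list means were 2.38 to 4.09 on chow and 3.92 to 6.19 on the high-fat diet. Of 3 measured monocyte markers Itgam (3.85) and Ccr2 (2.67) rose and Plac8 fell (by 2.73), with list means of 5.40 to 7.37 and 7.17 to 7.83. Plac8 went from 12.6 in chow array 1 to 8.12 in chow array 5, as the epithelial list means went from 10.4 to 6.96. Of 6 stromal markers Col1a1 (2.26) and Pi16 (1.70) rose, with list means of 8.16 to 9.14 and 8.85 to 9.80. RNA quality, read as the 5' probe set of the beta-actin control divided by its 3' probe set, averaged 0.341 ± 0.0731 in the chow arrays and 0.614 ± 0.0380 in the high-fat arrays (SD, 5 arrays in each group). The groups did not overlap (0.272 to 0.456 against 0.557 to 0.643). The Gapdh control ratio did not overlap either (0.563 to 0.900 on chow, 1.02 to 1.08 on the high-fat diet). RNA quality thus followed diet, and its part was not tested. Beyond the fits named below, the part of these differences in the results was not tested. Those fits leave out chow arrays 1 and 2 or hold the epididymis and testis mean as a covariate. That mean did not overlap between the diets, so the covariate fit can hardly separate it from diet, and its SEs are larger. For Csf2ra the SE was 0.28 against 0.14, so a call lost in that fit gives no cause. The covariate also does not follow the epithelial list across the chow arrays. Chow array 1 had the highest epithelial list mean (10.4) but an epididymis and testis mean of 7.10, beside 6.97 in chow array 5. In whole tissue, a greater number of cells of a type and more RNA per cell cannot be told apart.

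Promoter sequences are shown for the 3 receptor genes that rose, like Spi1, and whose promoters hold the letters of a PU.1 motif. Of the 9 genes, 5 were in the RefSeq promoter table (GRCm38.p6), whose windows of 300 bases run over the transcription start. Il34, Csf1r, Csf2rb and Spi1 had no window there and were not searched. The motif searched was GAGGAAG, on both strands, and 3 of the 6 promoters of those 5 genes held it (Irf8 has a pair of windows), against 13.6% of all 32851 promoters of that length. The other motif searched, GAAA and GAAA with any 2 bases between them on either strand (the core of the interferon response element that IRF proteins bind), was in 0 of the 6 and in 3.44% of all promoters. The 3 promoters with a match are printed 5' to 3' on the strand of the gene. The capitals mark GAGGAAG or, for a match on the opposite strand, its reverse complement CTTCCTC. The Csf2ra window is chr19:61228369-61228668 (minus strand), with overlapping matches at bases 237 to 243 and 243 to 249. The Csf2rb2 window is chr15:78305672-78305971 (minus strand), with matches at bases 83 to 89 and 279 to 285 on the opposite strand. The match at bases 279 to 285 lies past the transcription start. The Csf3r window is chr4:126024409-126024708 (plus strand), with a match at bases 165 to 171.
Csf2ra: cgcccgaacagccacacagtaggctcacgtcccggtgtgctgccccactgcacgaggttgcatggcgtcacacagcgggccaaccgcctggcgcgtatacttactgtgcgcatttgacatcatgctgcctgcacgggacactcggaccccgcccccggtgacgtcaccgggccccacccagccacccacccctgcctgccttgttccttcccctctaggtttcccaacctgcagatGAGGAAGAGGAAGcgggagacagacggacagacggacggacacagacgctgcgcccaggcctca
Csf2rb2: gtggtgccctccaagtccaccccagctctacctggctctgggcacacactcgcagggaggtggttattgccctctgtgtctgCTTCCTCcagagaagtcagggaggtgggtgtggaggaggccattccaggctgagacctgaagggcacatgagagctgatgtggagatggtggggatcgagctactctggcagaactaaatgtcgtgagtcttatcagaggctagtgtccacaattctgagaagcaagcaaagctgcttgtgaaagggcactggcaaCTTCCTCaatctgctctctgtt
Csf3r: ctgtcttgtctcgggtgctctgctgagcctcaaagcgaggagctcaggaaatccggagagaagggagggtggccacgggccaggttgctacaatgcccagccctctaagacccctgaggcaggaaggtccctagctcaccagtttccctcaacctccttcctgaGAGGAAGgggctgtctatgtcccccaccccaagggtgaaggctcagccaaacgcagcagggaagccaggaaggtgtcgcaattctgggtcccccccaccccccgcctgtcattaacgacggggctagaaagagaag
These are matches of letters and not measured binding sites. The windows of Csf1 and Irf8 held neither motif.

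Csf1r was higher in every high-fat mouse. Its brightest probe set measured 9.92, 10.06, 10.40, 10.62 and 10.93 in chow arrays 1 to 5, and 12.29, 12.40, 12.52, 12.51 and 12.56 in high-fat arrays 1 to 5. The lowest high-fat array was thus 1.36 above the highest chow array, and the high-fat arrays spanned 0.27 against 1.01 on chow. The change was 2.07 (SE 0.18, limma adjusted p = 2.91e-05), a 4.19-fold higher intensity, and 3.33% of all genes had a larger change. The other Csf1r probe sets rose by 2.42 (SE 0.21) and 2.89 (SE 0.18), also with no overlap between diets. The 3 probe sets therefore differed in the size of the change but not in its direction. Chow arrays 1 and 2 were lowest for the brightest probe set, and the change without them was 1.80 (SE 0.12).

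Of the ligands of CSF1R, Csf1 overlapped between the diets. The brightest Csf1 probe set measured 7.29, 7.18, 7.42, 7.49 and 8.04 in chow arrays 1 to 5, and 7.62, 7.77, 7.88, 7.94 and 7.97 in high-fat arrays 1 to 5. Chow array 5 lay above all high-fat arrays, and the other chow arrays lay below all of them. The change of 0.35 (SE 0.16) did not pass the threshold (limma adjusted p = 0.145; 2-sided exact permutation p = 0.0714 over 252 arrangements). Without chow replicate 5 Csf1 rose by 0.49 (adjusted p = 0.0167).

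The Csf1 probe sets and the scaling gave different calls. Of the 4 probe sets, the dimmer pair rose, by 1.18 (SE 0.19, limma adjusted p = 0.00171) and 0.83 (SE 0.22, adjusted p = 0.0250), with no overlap between diets. The second brightest differed by 0.52 (adjusted p = 0.113). The mean of all 4 rose by 0.72 (adjusted p = 0.00512). With the values as deposited the brightest probe set rose by 0.57 (adjusted p = 0.0350), and with arrays centred on their medians by 0.70 (adjusted p = 0.00591). These scalings set the median change of all genes at 0.078 and 0.21 in turn. With the epididymis and testis mean as a covariate the brightest probe set differed by -0.10 (adjusted p = 0.870), and the dimmer pair no longer passed (1.13, adjusted p = 0.145, and 0.77, adjusted p = 0.386). The call of the probe set that rose by 0.83 was also lost without chow replicate 3 and without high-fat replicate 1, 2, 4 or 5 (adjusted p up to 0.0661), and with the values as deposited (0.72, adjusted p = 0.0811).

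Il34, the other ligand, was even on the high-fat diet and uneven on chow. Its single probe set measured 3.64, 7.12, 5.46, 6.77 and 6.66 in chow arrays 1 to 5, and 6.58, 6.42, 6.40, 6.36 and 6.40 in high-fat arrays 1 to 5. The chow arrays spanned 3.48 and the high-fat arrays 0.22, and the groups overlapped. The difference was 0.50 (SE 0.56, limma adjusted p = 0.561; 2-sided exact permutation p = 0.563). It was -0.069 without chow replicate 1, which held the lowest value, so 1 array set its direction. Csf1 minus Il34 within each array was 1.56 ± 1.37 in chow arrays and 1.40 ± 0.22 in high-fat arrays (SD, n = 5 each; 2-sided exact permutation p = 0.833, adjusted p = 0.833 over 8 tests).

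**Figure D2:**
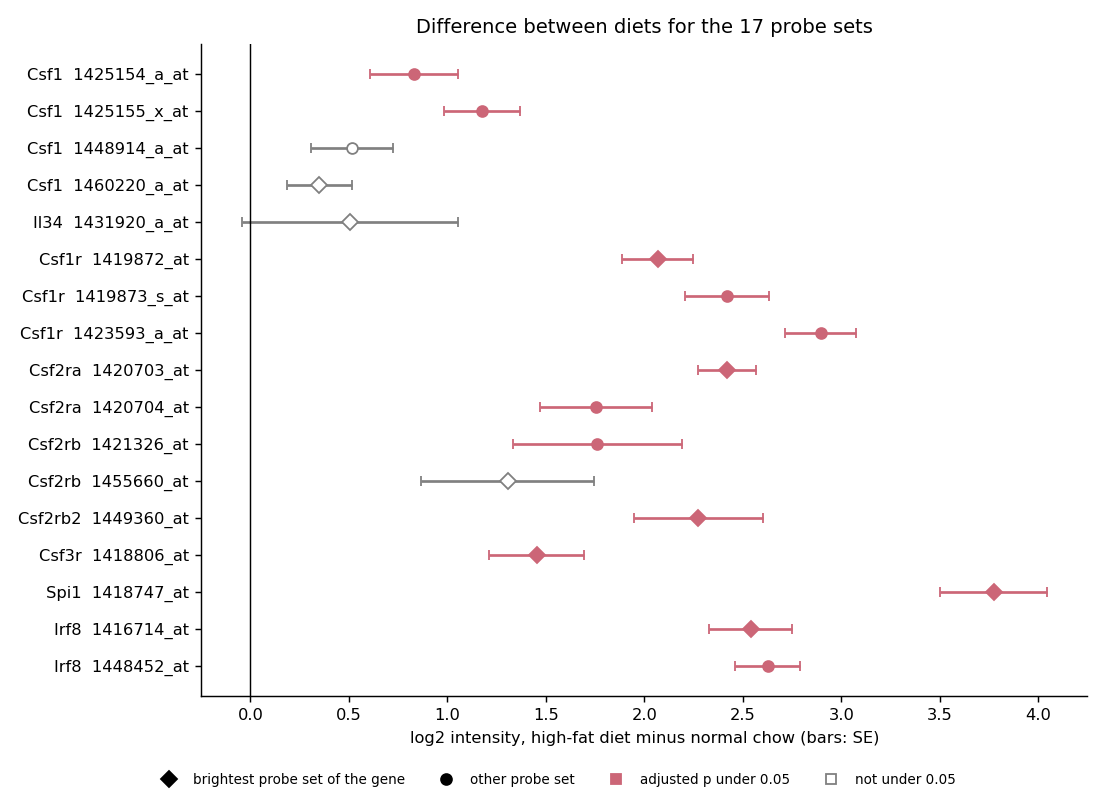
Difference in log2 intensity between the diets (high-fat minus chow, x axis) for each of the 17 probe sets, with SE bars from the fit over all probe sets. Filled red symbols passed an adjusted p of 0.05, open grey ones did not, and diamonds mark the brightest probe set of a gene. All 17 estimates lie above 0, and 13 passed.

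The GM-CSF receptor alpha chain was higher in every high-fat mouse. Csf2ra measured 6.79, 7.10, 6.56, 7.06 and 6.96 in chow arrays 1 to 5, and 9.06, 9.16, 9.54, 9.25 and 9.55 in high-fat arrays 1 to 5. The gap between the groups was 1.96, and the spread within chow (SD 0.221) was close to that on the high-fat diet (SD 0.222). Csf2ra rose by 2.42 (SE 0.14, limma adjusted p = 2.65e-06), or 5.35-fold. Its levels in chow arrays 1 and 2 lay within the range of the other chow arrays or above it, and the change without them was 2.45. A second, dimmer Csf2ra probe set rose by 1.76 (SE 0.28, adjusted p = 0.00153), but not with the epididymis and testis mean as a covariate (0.80, adjusted p = 0.365).

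The beta chains split the chow group. Csf2rb measured 7.65 and 6.58 in chow arrays 1 and 2 and 9.13, 9.03 and 9.10 in chow arrays 3 to 5, against 9.47, 9.57, 9.83, 9.59 and 9.56 in high-fat arrays 1 to 5. The groups did not overlap, although chow array 3 came within 0.34 of the lowest high-fat array. The difference of 1.31 (SE 0.45) missed the threshold (limma adjusted p = 0.0534). Without chow arrays 1 and 2 it was smaller but passed, with a rise of 0.52 (SE 0.089, adjusted p = 0.00116). With the epididymis and testis mean as a covariate it was 0.034 (adjusted p = 0.987). Over the 22 alternatives, Csf2rb passed in 10. Its second probe set rose by 1.76 (SE 0.43, adjusted p = 0.0149), with the same 2 chow arrays lowest, at 4.63 and 4.46 against 6.30 to 6.65 in the other chow arrays. That rise did not pass with the covariate (0.78, adjusted p = 0.636).

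Csf2rb2, the interleukin 3 beta chain, rose. It measured 5.95, 5.23, 6.98, 6.93 and 6.92 in chow arrays 1 to 5, and 8.35, 8.56, 8.92, 8.55 and 8.996 in high-fat arrays 1 to 5. Chow arrays 1 and 2 were again lowest, and the gap between the groups was 1.37. The rise was 2.27 (SE 0.33, limma adjusted p = 0.000657) over all arrays and 1.73 (SE 0.15) without chow arrays 1 and 2. It did not pass with the epididymis and testis mean as a covariate (1.31, adjusted p = 0.197). The part of the low endothelial list means of chow arrays 1 and 2 in these values was not tested. Csf2rb and Csf2rb2 are near-identical copies on chromosome 15, with no other gene of the RefSeq table lying wholly between them, and probe sets may read both. A further probe set that names both genes was dim and differed by 0.77 (SE 0.92, adjusted p = 0.629).

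**Figure D3:**
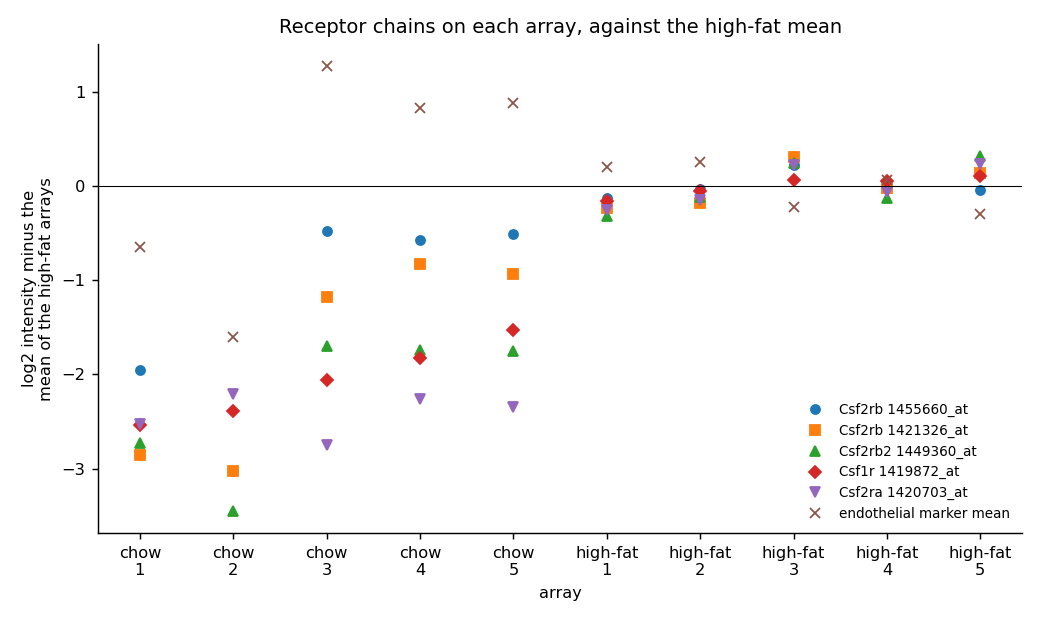
Log2 intensity of receptor probe sets and mean log2 level of 6 endothelial markers on each array (x axis), each minus its own mean over the 5 high-fat arrays (y axis). Csf2rb, Csf2rb2 and the endothelial mean are lowest in chow arrays 1 and 2. Csf1r is also lowest there, over a narrower range, and Csf2ra shows no such split.

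The G-CSF receptor was dim in both groups and higher on the high-fat diet. Csf3r measured 3.43, 4.06, 3.55, 3.88 and 3.67 in chow arrays 1 to 5, and 4.81, 5.41, 5.16, 5.12 and 5.36 in high-fat arrays 1 to 5. All high-fat arrays lay above all chow arrays, by 0.75 or more. Csf3r rose by 1.45 (SE 0.24, limma adjusted p = 0.00145), or by 0.83 on the log2(value + 16) scale, which damps the changes of dim genes. With the epididymis and testis mean as a covariate the difference was 1.69 (adjusted p = 0.0678). Neutrophil markers did not move together. Of 9 measured markers, S100a8 (4.83) and Elane (1.40) rose and Ltf, lactoferrin, fell (by 4.27). The list mean was 2.94 to 3.37 on chow and 3.24 to 3.96 on the high-fat diet. S100a9 was dim and differed by 0.095. Ltf went from 10.5 in chow array 1 to 4.51 in chow array 5, as the epithelial list means went from 10.4 to 6.96. The epithelial part in the Ltf value was not tested. Elane did not pass without chow arrays 1 and 2 (1.31, adjusted p = 0.0543). The part of neutrophils in the Csf3r change was not tested.

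Spi1 had the largest change of the group. It measured 4.09, 4.18, 4.70, 5.30 and 4.90 in chow arrays 1 to 5, and 7.73, 8.36, 8.77, 8.37 and 8.79 in high-fat arrays 1 to 5. The lowest high-fat array lay 2.43 above the highest chow array. Spi1 rose by 3.77 (SE 0.28, limma adjusted p = 1.00e-05), or 13.7-fold, and 0.533% of all genes had a larger change. The rise was 3.44 without chow arrays 1 and 2 and 3.11 on the log2(value + 16) scale.

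Irf8 measured 5.39, 6.41, 6.21, 6.49 and 6.52 in chow arrays 1 to 5, and 8.62, 8.71, 8.86, 8.56 and 8.97 in high-fat arrays 1 to 5. Chow array 1 was lowest, and the groups lay 2.05 apart. The rise was 2.54 (SE 0.21, limma adjusted p = 2.24e-05), and the second probe set of Irf8 rose by 2.63 (SE 0.16). IRF8 is also made by dendritic cells and B cells, whose markers moved in part. Of 7 measured dendritic cell markers 3 rose (42.9%, beside 12.9% of all genes) and none fell, with a median of 0.074. The 3 were Flt3, Cd209a and Ccr7. Zbtb46 (-0.93), Itgae (-0.87) and Siglech (-0.021) were lower without passing, and Zbtb46 fell by 1.73 without chow arrays 1 and 2. The list means were 3.18 to 3.92 on chow and 3.72 to 4.67 on the high-fat diet. Of 4 measured B cell markers Cd22 and Cd79b rose (50%, beside 12.9% of all genes), with list means of 2.94 to 3.83 and 3.72 to 4.56. Cd79a (-1.72, limma adjusted p = 0.151) and Ms4a1 (0.75, adjusted p = 0.174) did not pass. The part of dendritic cells and B cells in the Irf8 change was not tested.

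Macrophage markers gave a scale for these changes. Of 12 markers (Adgre1, Cd68, Mertk, Fcgr1, Lyz2, Cd14, C1qa, C1qb, C1qc, Tyrobp, Aif1 and Lgmn) 11 rose and none fell, and their mean level went from 7.45 ± 0.26 to 10.36 ± 0.31 (SD, n = 5 each), a difference of 2.91. Each receptor and lineage factor was set against this mean in the same array, and the 2-sided exact permutation test was adjusted over 8 tests. Its smallest raw p is 0.00794, over 252 arrangements.

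Relative to the marker mean, Csf1r, Csf2ra, Csf3r and Irf8 were lower on the high-fat diet and Spi1 was higher. Single markers changed by -0.23 (Mertk) to 5.17 (Cd68), and the changes of these 5 genes lie within that range. A difference from the mean therefore does not set a gene apart from single markers. Csf1r minus the marker mean went from 2.94 ± 0.23 to 2.10 ± 0.22 (SD, n = 5 each), a difference of -0.84 (exact permutation adjusted p = 0.0317) with no overlap between groups. Its size depended on the probe set, and it was -0.44 (exact permutation adjusted p = 0.0317) when its 3 probe sets were averaged. The Csf1r probe set with the largest change rose by 2.89, beside 2.91 for the marker mean, so unequal response of the probe sets and unequal change of the gene cannot be told apart. Csf3r differed by -1.46 (exact permutation adjusted p = 0.0317), again with no overlap. Csf2ra differed by -0.49 (exact permutation adjusted p = 0.0317) and Irf8 by -0.37 (exact permutation adjusted p = 0.0381), both with overlapping arrays. The Csf2ra difference was -0.81 (exact permutation adjusted p = 0.0317) with the mean of both probe sets. Spi1 minus the marker mean went from -2.81 ± 0.41 to -1.95 ± 0.14 (SD, n = 5 each), a difference of 0.86 (exact permutation adjusted p = 0.0317). With 1 array left out, each of these 5 calls was lost in some cases, with adjusted p up to 0.0762 where fewer arrangements exist, and none changed direction. The Spi1 value was smaller, 0.36 (adjusted p = 0.0381), on the log2(value + 16) scale.

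The beta chains did not pass this test. Csf2rb differed by -1.60 (exact permutation adjusted p = 0.0529) and Csf2rb2 by -0.64 (exact permutation adjusted p = 0.0907), and in both chow array 2 lay apart from the other chow arrays. Without chow replicate 2 the differences were -2.04 and -0.94, each with an exact permutation adjusted p of 0.0317. These values compare changes of the probe sets used and do not set the level of one gene against another.

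**Figure D4:**
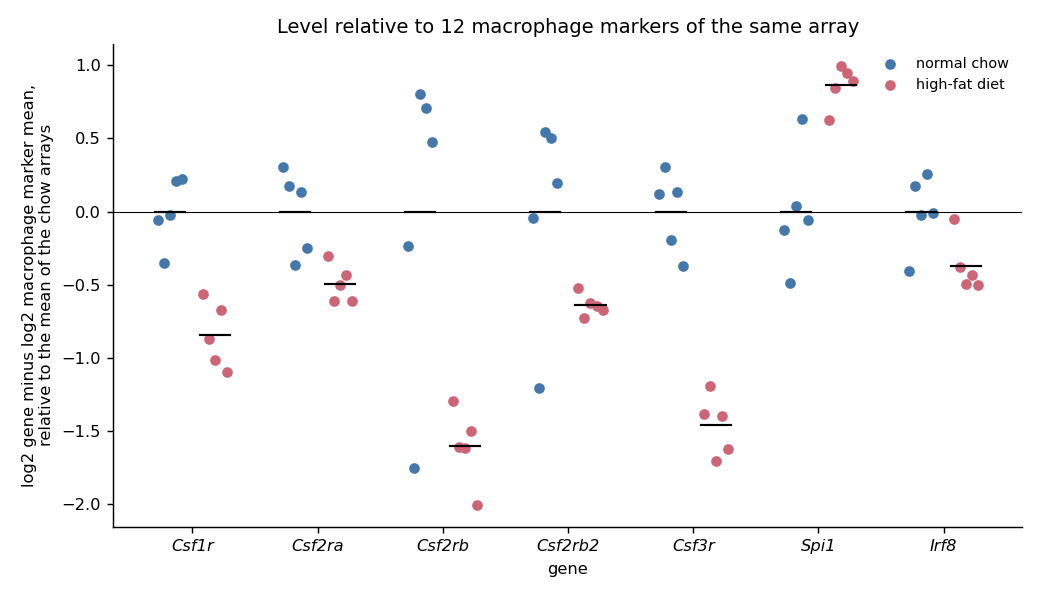
Log2 level of each receptor and lineage factor minus the mean log2 level of 12 macrophage markers of the same array, shown relative to the mean of the 5 chow arrays (y axis), with 1 point per array and a black bar at each group mean. Csf1r and Csf3r lie lower on the high-fat diet with no overlap, and Spi1 lies higher with 1 chow array inside the high-fat range.

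Genes whose profiles lay nearest were found by the root mean square difference over the 10 arrays, after each gene was centred on its own mean, among 9095 candidate genes above the median level. Csf1r was followed most closely by Frrs1 (0.086), Lyz1, a lysozyme (0.11), and Evl (0.15). These rose by 2.12, 2.14 and 2.10. Among the other 8 genes of the group Irf8 and Csf2ra lay nearest to Csf1r (0.33 and 0.34), and 0.781% and 0.858% of the candidates were closer. For Csf1 the nearest were Trim8 (0.095), Pitrm1 (0.12) and Rit1 (0.12), and for Il34 Ehd3 (0.40), Limd2 (0.47) and Ctnnbip1 (0.48). These distances are descriptions.

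No other myeloid growth factor passed the test. Of 8 measured (Csf2, Csf3, Il3, Il5, Kitl, Tnfsf11, Il4 and Il6) 0 passed limma's adjusted p of 0.05, 0 had an unadjusted p under 0.05, and the median change was 0.0031. Apart from Kitl these probe sets were dim: Il3, Il5, Tnfsf11 and Il6 each had at least 1 array at the lowest normalized level (-0.60), and a change of such genes could hardly be seen here. Without chow arrays 1 and 2, Kitl, the ligand of KIT, fell by 0.61 (adjusted p = 0.00259). Csf3, the G-CSF gene, differed by -1.60 (SE 1.11, adjusted p = 0.330) and Il4 by -0.42 (SE 0.49, adjusted p = 0.583).

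Of 9 other receptor chains 3 rose (33.3%, beside 12.9% of all genes) and none fell (beside 13.1%). Tnfrsf11a, which encodes the RANK receptor of osteoclast precursors, rose by 1.93 (SE 0.39, adjusted p = 0.00423). Il3ra, the interleukin 3 alpha chain that pairs with the beta chains above, rose by 1.46 (SE 0.26, adjusted p = 0.00240), and Flt3, a receptor of dendritic cell progenitors, by 1.02 (SE 0.32, adjusted p = 0.0353). The median of the list was 0.21. Il4ra and Il6st, named after their values were seen, fell by 0.96 and 0.61 without chow arrays 1 and 2.

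Of 26 measured kinases, adaptors, STATs and inhibitors downstream of the receptors, 9 rose (34.6%, beside 12.9% of all genes) and 2 fell (7.69%, beside 13.1%), with a median of 0.15. The largest rises were those of the kinase Syk (2.63, SE 0.49), the phosphoinositide 3-kinase subunit Pik3cg (2.29, SE 0.24), the kinase Fes (2.19, SE 0.43) and the exchange factor Vav1 (1.42, SE 0.20). The falls, named here after their values were seen, were those of Jak2 (by 0.76), a kinase that the GM-CSF and G-CSF receptors use, and Stat3 (by 0.80), a transcription factor downstream of G-CSF. Of the other JAK kinases, also named after their values were seen, Jak1 rose by 0.74 (SE 0.10) and Tyk2 did not pass (0.18). Syk was uneven on chow, at 4.87 in array 1 and 8.31 in array 2, with all high-fat arrays above. In the list, 9 rose and 5 fell without chow arrays 1 and 2, the further falls being those of Socs2, Gab2 and Pik3cd.

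Of 23 other lineage factors 7 rose (30.4%, beside 12.9% of all genes) and 4 fell (17.4%, near the 13.1% of all genes), with a median of 0.33. The rises were led by Tfec, a macrophage MiT-family factor (2.81, SE 0.81), Irf5 (2.52, SE 0.17), Zeb2 (2.21, SE 0.44) and Batf3, a dendritic cell factor (1.92, SE 0.30). Tfec was dim on chow, with chow array 1 at the lowest normalized level (-0.60). Without chow arrays 1 and 2 it rose by 1.58, less than Irf5 (2.43). The 4 that fell, also named after their values were seen, were Myb, a factor of blood progenitors (by 1.85), Irf4 (by 1.64), Nr4a1 (by 1.49) and Gata2 (by 1.34). Without chow arrays 1 and 2, 9 rose and 6 fell: Myb did not pass (-1.49, adjusted p = 0.0698), and Zbtb46, Klf4 and Cebpa fell beside the other 3.

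Textbook target genes of PU.1 and IRF8 were mostly higher. Of 15 measured 11 rose (73.3%, beside 12.9% of all genes) and none fell, with a median of 2.67, beside 2.99 for the macrophage markers. The largest changes were those of Btk, a kinase of B cells and myeloid cells (4.08, SE 0.67), Cybb, the NADPH oxidase subunit (3.86, SE 0.27), the integrin Itgam (3.85, SE 0.56) and Fcgr1, the high-affinity IgG receptor (3.35, SE 0.26). Btk measured 1.63 and 2.10 in chow arrays 1 and 2, against 4.53 to 5.26 in the other chow arrays. Without chow arrays 1 and 2 it rose by 2.90, less than Itgam (4.43), Cybb (3.53) and Fcgr1 (3.48). Il1b (0.28) and Il12b (0.081), both cytokine genes, did not pass. Elane, which rose by 1.40, did not pass without chow arrays 1 and 2, where 10 of the list rose. Fcgr1 is also one of the 12 macrophage markers, so these lists are not separate measurements.

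**Figure D5:**
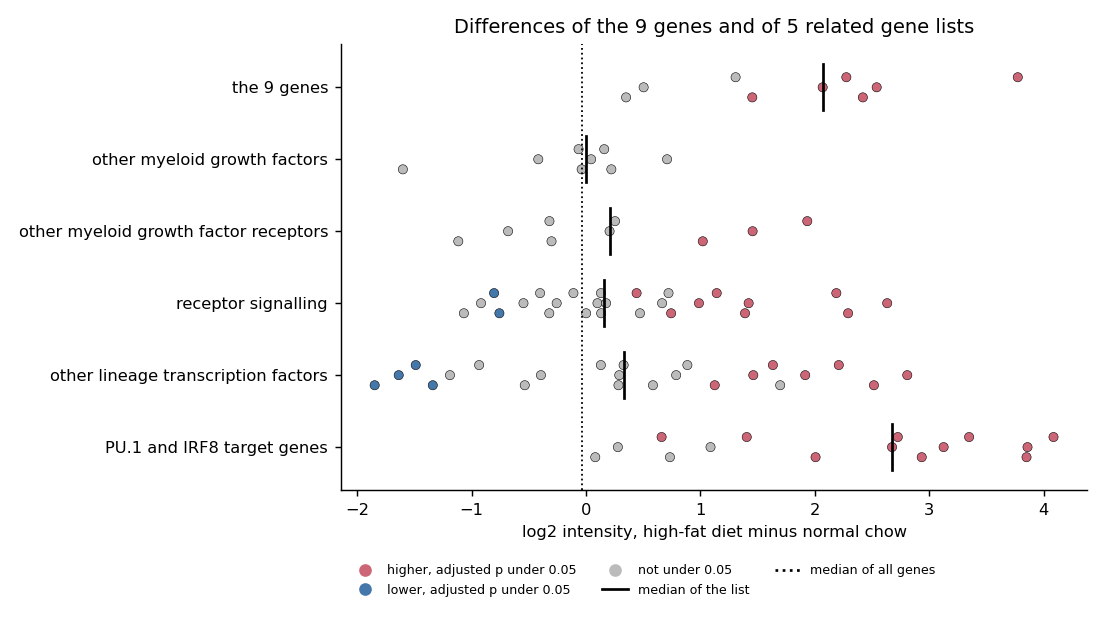
Change in log2 intensity (high-fat minus chow, x axis) of each measured gene of the group and of 5 related lists, coloured by whether it passed an adjusted p of 0.05, with a black bar at the median of each list and a dotted line at the median of all genes (-0.037). The target list and the 9 genes lie to the right, and the other growth factors centre near 0.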

How the data were processed

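Gene expression was measured on Affymetrix arrays with biotin-labelled cRNA made from the total RNA of each mouse, per the labels' protocols. The authors deposited 1 linear intensity per probe set and array; their summary algorithm and scaling were not given in the sources used here. Intensities were raised to the 5th percentile of all values (0.658), log2 transformed and quantile normalized, since the deposited array medians differed by 0.613. Genes were named from the platform annotation: 34958 probe sets had 1 symbol, 932 several and 9211 none here. Tests left out 64 control probe sets. Genes (brightest probe set, 18193) and all other 45037 probe sets were fitted in R 4.3.3 by limma 3.58.1 (lmFit, eBayes with trend) and Benjamini-Hochberg adjustment at 0.05. Single values were also tested with 2-sided exact permutation over 252 arrangements. The procedure was tested on simulated data.

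The genes described and all lists were chosen with earlier results of these data known. The text names the 9 genes, in each pathway list up to 4 genes that passed, by size of change (where fewer than 2 passed, those of smallest p), the 3 profiles nearest to Csf1, Il34 and Csf1r, and markers a result turns on. Alternatives were other scalings, floors, variance priors, array weights, filters, probe-set choices, a replicate block, the epididymis and testis mean as a covariate, leaving out chow arrays 1 and 2, and leaving out each array. P-values measure the spread between mice, whose number sets the precision. No detection calls were used.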

Additional observations from a re-analysis of the deposited data

Results flagged for a closer look

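In groups of 5 arrays, 3 values of 50 groups of values examined stood apart from the other 4 of their group. Chance sets apart about 1 group in 20. Irf8 in chow array 1 was the lowest of its group, at 5.39, with the next chow array at 6.21. Il34 in high-fat array 1 was the highest of its group, at 6.58 against 6.42 for the next, in a group that spanned only 0.22. Irf8 minus the macrophage marker mean was highest in high-fat array 1 at -1.29, with the next high-fat array at -1.62.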

How the results depend on the processing

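Csf1r, Csf2ra, Spi1 and Irf8 kept their direction and passed in each of the 22 alternatives, with changes of 1.69 to 2.47, 2.09 to 2.79, 3.11 to 3.98 and 2.30 to 2.86. The number of the 9 genes that rose ran from 4 to 8, and none fell in any. Csf1 rose for the values as deposited (0.57), with arrays centred on their medians (0.70) and with the mean of all probe sets (0.72), and Csf2rb did so in the same 3 settings (1.58, 1.72 and 1.53), with array weights (0.72), among genes above the median level (1.31) and without chow arrays 1 and 2 (0.52). The epididymis and testis mean did not overlap between the diets, so a fit with it as a covariate can hardly separate it from diet. In that fit Csf1 was -0.10, Csf2rb2 1.31 and Csf3r 1.69, none past the threshold, and 7 of the 17 probe sets rose against 13. Leaving out 1 array at a time gave 0.27 to 0.49 for Csf1, 0.88 to 1.51 for Csf2rb and -0.069 to 0.80 for Il34. Csf1 minus Il34 was 0.015 with log2(value + 16), 0.22 with the mean of all probe sets, 0.048 without chow arrays 1 and 2 and -0.53 to 0.37 with 1 array left out. Relative to the macrophage markers, Csf2rb passed without probe sets of possible cross-match (-1.66). Without chow arrays 1 and 2 these differences were -0.98 for Csf1r, -0.33 for Csf2ra, -1.31 for Csf3r, 0.66 for Spi1 and -0.45 for Irf8 and did not pass, where fewer arrangements exist. With 1 array left out they were -0.93 to -0.78 for Csf1r, -0.58 to -0.42 for Csf2ra, -2.04 to -1.40 for Csf2rb, -0.94 to -0.50 for Csf2rb2, -1.55 to -1.38 for Csf3r, 0.74 to 1.02 for Spi1 and -0.47 to -0.31 for Irf8. Where no cause is given, the cause was not tested. Csf1 and Il34 have no value without probe sets of possible cross-match, and Csf3r has none among genes above the median level. The replicate numbers showed no sign of pairing: deviations of same-numbered arrays correlated at -0.020 to 0.0056. This cannot show that the mice were unpaired. With the number as a replicate block Csf1r was 2.07 (adjusted p = 0.000364), 6 of the 9 genes rose, no call of the 9 changed, and the call of 1 Csf1 probe set was lost (0.83, adjusted p = 0.0657).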
